A study of Canis lupus familiaris with 2 samples.

Results

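MicroRNAs of the miR-99/100 and miR-125 families were compared between a monolayer and a spheroid culture of SNP, cultured tumour cells of the dog mammary gland. The members were the dog probes named miR-99a, miR-99b, miR-100, miR-125a or miR-125b, with any arm suffix, and 4 of the 291 dog miRNA probes of the array met that rule: miR-99a, miR-99b, miR-125a and miR-125b. miR-100 was not analysed here. Each member had 1 probe with 1 spot, with no arm suffix in its name, and was matched to the authors' value table by its mature miRNA identifier (MIMAT0006668 for miR-99a, MIMAT0006607 for miR-99b, MIMAT0006609 for miR-125a and MIMAT0006670 for miR-125b).

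The monolayer sample was grown as adherent cells in RPMI-1640 medium with serum and antibiotics. The spheroid sample was started from non-adherent SNP cells picked from the growth medium, and these were grown with no basement membrane components or matrix-like material added. Selection and culture form therefore cannot be told apart, and both cultures, harvested with trypsin when nearly confluent, were of SNP cells only. Each culture was represented by 1 total RNA sample on 1 array, and the RNA integrity numbers were 9.8 (monolayer) and 9.7 (spheroids), so no difference below has a replicate check and no p-value was computed.

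miR-125 is the vertebrate relative of lin-4, the founding miRNA of Caenorhabditis elegans, and represses LIN28, the protein that blocks the maturation of let-7. In human breast cancer cells miR-125a and miR-125b repress the receptors ERBB2 and ERBB3. miR-99a, miR-99b and miR-100 share a seed of their own, different from that of miR-125, and are known in human cells for repressing MTOR and IGF1R. The genes of both families lie beside let-7 genes in clusters that are conserved among vertebrates, and members of such a cluster can be transcribed together.

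The same arrangement was found in the dog gene table of assembly UU_Cfam_GSD_1.0, where genes of all 4 members lay in 3 clusters of miRNA genes no more than 50 kb apart from one to the next. One cluster held MIR125A, MIRLET7E and MIR99B, in that order along the chromosome. A second held MIR99A-1, MIRLET7C and MIR125B-2, and the third held MIR99A-2, MIRLET7A-2 and MIR125B-1. miR-125a, miR-99b, let-7e and let-7c each had 1 gene in that table. miR-99a, miR-125b and let-7a had 2 genes each, and the 2 genes of a name share 1 probe on the array, so their transcripts could not be told apart. let-7a also had a gene outside these clusters.

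All 4 members were detected on both arrays. Detection meant a raw median spot intensity exceeding the blank spots' mean by over 2 of their SDs, which set the limit at 89.8 for the monolayer and at 79.8 for the spheroids. By this rule 180 of the 291 miRNAs (61.9%) were detected in the monolayer and 201 (69.1%) in the spheroids, and 178 on both arrays. The dimmest member, miR-125a, still lay 20.0 blank SDs above the blank mean in the monolayer and 52.8 in the spheroids, and all 4 members also passed a limit of 5 SDs on both arrays.

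miR-125b, a miRNA that is abundant in many adult tissues, was the brightest member. Its raw intensity went from 1186 in monolayer cells to 1435 in spheroids, and its values in the table deposited by the authors, which are blank-subtracted and scaled, were 672 and 676. The deposited values therefore differed by 1.01-fold. It was the 7th brightest of the 291 spots in the monolayer and the 11th brightest in the spheroids. This order is one of spot brightness and not of amounts of RNA, since probes differ in how well they bind. After normexp background correction and quantile normalization, which are the main values below, miR-125b was at a log2 level of 10.52 in the monolayer and 10.19 in the spheroids, a log2 difference of -0.32, spheroids minus monolayer. The sign of this difference rested on the scaling: it was 0.19 with the arrays shifted to a common median, 0.29 with no scaling and 0.62 with scaling to the spike control spots. With scaling to the 75th percentile it was -0.09, and 7 of the 11 other settings tried gave a value below 0.

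miR-125a, which shares its seed with miR-125b, had the highest log2 difference of the 4 in the main values. Monolayer cells gave a raw intensity of 132 and spheroids one of 159, and the deposited values were 28.9 and 40.7, a ratio of 1.41. Its log2 levels were 6.76 and 7.07, a difference of 0.30. That value was 0.43 with a smaller normexp offset of 16 and 0.58 with the blank mean subtracted, but 0.01 with scaling to the 75th percentile. With scaling to the spike control spots it was 1.10, past 2-fold, as were 38.8% of all miRNAs detected on both arrays.

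miR-99a had a raw intensity of 193 in the monolayer and 237 in the spheroids and deposited values of 65.8 and 79.8, a ratio of 1.21. Its main log2 level was 7.54 and 7.57, a difference of 0.03. miR-99b, the other probe of its family, had a raw intensity of 147 and 166 and deposited values of 37.9 and 44.5, a ratio of 1.17. Its main log2 level was 6.98 and 7.13, a difference of 0.15, which was -0.10 with scaling to the 75th percentile. Whether the probes of the closely similar miR-99a and miR-99b, or of miR-125a and miR-125b, read part of each other's signal was not tested.

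**Figure D1:**
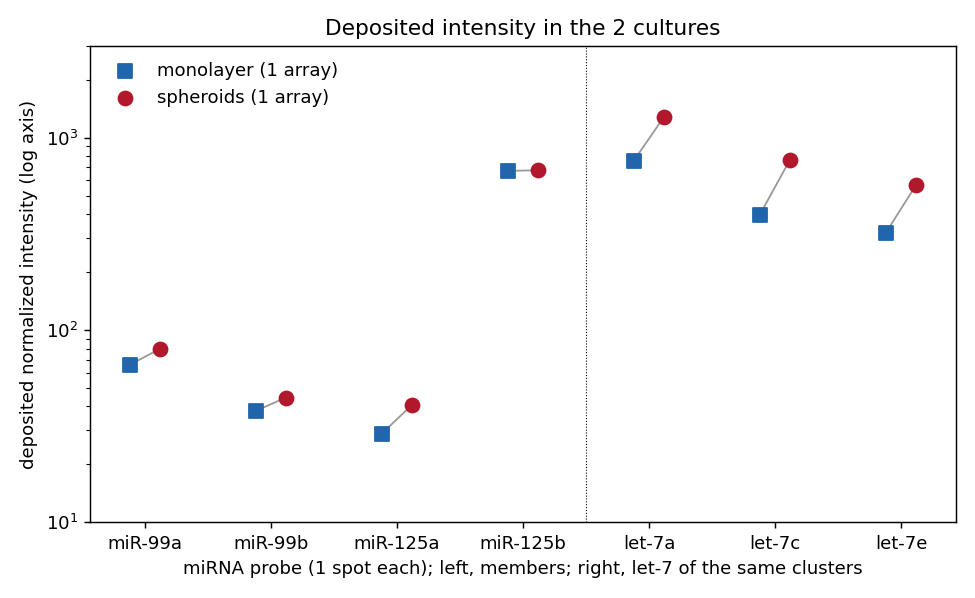
Deposited normalized intensity (log axis) of the 4 members and of the let-7 miRNAs of their clusters, 1 spot on 1 array per culture (squares, monolayer; circles, spheroids), with no error bars since there are no replicates. miR-125b is nearly level (672 and 676), the other 3 members are 1.17 to 1.41-fold higher in the spheroids, and let-7a, let-7c and let-7e are 1.69 to 1.93-fold higher; heights of different probes are not to be compared.

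None of the 4 members was 2-fold or more apart between the cultures in the main values, where 5.06% of the 178 miRNAs detected on both arrays were. In the authors' deposited values 27.0% of the 178 were 2-fold or more apart, and again no member was. The log2 differences ran from -0.32 to 0.30 with a median of 0.09, beside a median of -0.05 over the 178. In the order of differences from the most positive down, miR-125a was 36th of the 178, miR-99b 58th, miR-99a 77th and miR-125b 146th. The members thus lay within the bulk of the miRNAs, in the upper part for 3 of them and the lower part for miR-125b.

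Repeated spots of 6 control probes gave an SD of 0.065 for a log2 difference, which covers spot-to-spot error and leaves out variation between cultures, extractions and arrays. It was measured before quantile normalization, whereas the differences set against it here are quantile normalized. More than 2 such SDs above 0 lay miR-125a and miR-99b, and 32.6% of the 178 miRNAs did so. More than 2 SDs below 0 lay miR-125b, with 36.0% of the 178. miR-99a was within 2 SDs of 0. With 4 members, the counts of 2 above and 1 below do not set them apart from these shares.

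**Figure D2:**
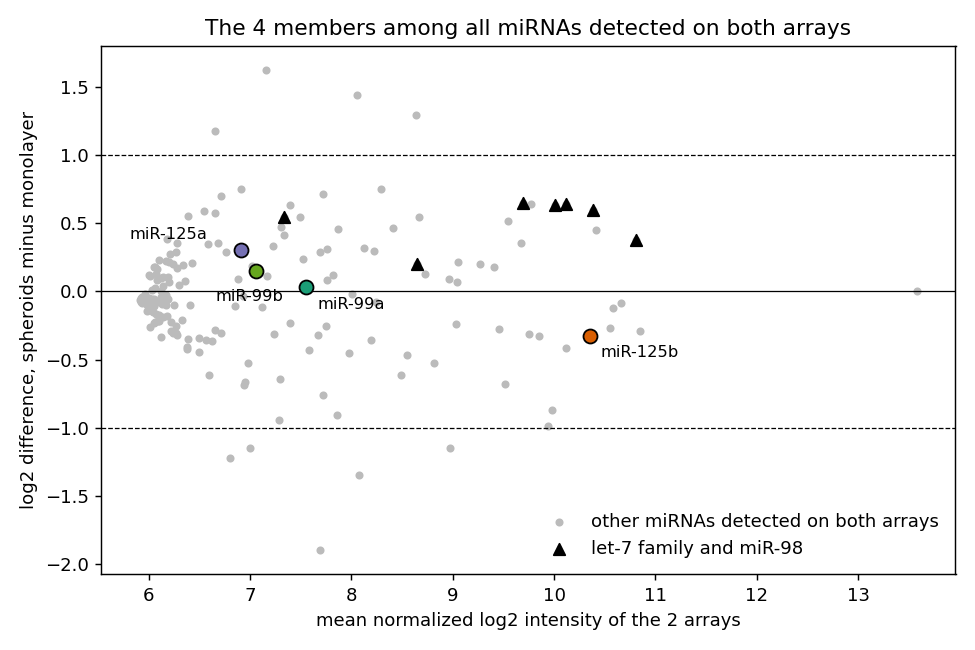
Log2 difference (spheroids minus monolayer) against mean normalized log2 intensity for the 178 miRNAs detected on both arrays, 1 point per miRNA, with dashed lines at 2-fold. The 4 members (coloured) lie between -0.32 and 0.30, whereas the 7 detected probes of the let-7 family and miR-98 (triangles) lie between 0.20 and 0.65.

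By family, the 2 miR-99 probes had a median log2 difference of 0.09 and the 2 miR-125 probes one of -0.01, each being the mean of 2 values. The miR-125 value joined a higher and a lower member. miR-125a stood above miR-125b by 0.63 in log2 difference. The spot SD for such a pair (the spot SD of a difference times the square root of 2) was 0.092, measured before quantile normalization. On the scale of that SD, with the same background correction and no quantile normalization, the gap was 0.09, about the size of the SD. It was 0.49 in the deposited values, which are not quantile normalized either. The gap between miR-99a and miR-99b was -0.12, within 2 such SDs, and 0.11 with the same background correction and no quantile normalization.

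With the main background correction, the spread among the members was wider after quantile normalization than before it. With that background correction and no scaling, their log2 differences were 0.38 for miR-99a, 0.27 for miR-99b, 0.38 for miR-125a and 0.29 for miR-125b. Those values spanned 0.11, against 0.63 in the main values. In the unscaled values the median of the 178 miRNAs was 0.09 and all 4 members lay above it. In the authors' deposited values, whose median over the 178 was 0.00, the 4 members were at 0.28, 0.23, 0.49 and 0.01 in the same order, a span of 0.49.

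The let-7 neighbours differed between the cultures by more than the members of the same clusters did. let-7e, whose gene lies between those of miR-125a and miR-99b, had deposited values of 321 in the monolayer and 568 in the spheroids, a ratio of 1.77. Its main log2 difference of 0.65 exceeded that of miR-125a by 0.34 and that of miR-99b by 0.50. The gap between miR-125a and let-7e (-0.34) shrank to -0.12 with the blank mean subtracted and to -0.11 with the blank median of the own block subtracted, both within 2 spot SDs for a pair (0.18). It widened to -0.66 with the main background correction and no quantile normalization. In the deposited values, which are not quantile normalized either, it was -0.33. In this cluster each of the 3 mature miRNAs has a single gene in the table, although signal from other let-7 miRNAs in the let-7e probe was not tested. miR-99b was below miR-125a by 0.15, which was within 2 spot SDs for a pair.

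let-7c, whose gene lies between MIR99A-1 and MIR125B-2, had deposited values of 398 and 770, a ratio of 1.93, and a main log2 difference of 0.63. That was 0.60 above miR-99a and 0.96 above miR-125b. let-7a, which has a gene between MIR99A-2 and MIR125B-1, had deposited values of 759 and 1285, a ratio of 1.69. Its main log2 difference of 0.38 was 0.35 above that of miR-99a and 0.70 above that of miR-125b. Here the share of each of the 2 loci in the signal of miR-99a and miR-125b could not be read from the array. Signal from other let-7 miRNAs in the let-7c and let-7a probes was not tested either.

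**Figure D3:**
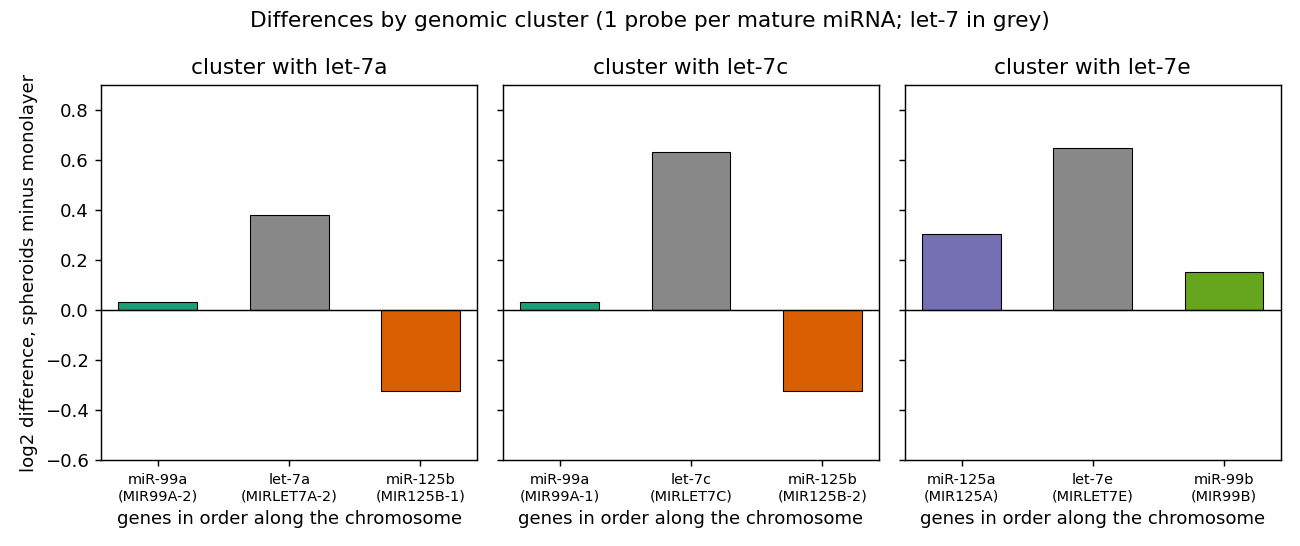
Main log2 difference (spheroids minus monolayer) of the 3 miRNAs in each of the 3 clusters, as bars from 0 in the order of their genes, with let-7 in grey. let-7 is the highest bar in each cluster (0.38, 0.63 and 0.65); miR-99a and miR-125b appear in 2 panels because 1 probe stands for 2 genes.

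The direction of the gaps between members and let-7 varied less with the scaling than that of the members' own differences, but the size of the gaps did vary. A shift of a whole array moves both miRNAs of a pair alike. The 6 gaps between a member and a let-7 of its cluster were -0.64 to -0.89 with the main background correction and no quantile normalization. In the deposited values they ran from -0.33 for miR-125a against let-7e to -0.94 for miR-125b against let-7c. All 6 were below 0 in the main values and under 10 of the 11 other settings. The exception was a second intensity column of the scanner tables, which gave 0.28 for miR-99a against let-7c and 0.67 for miR-99a against let-7a and kept the other 4 below 0. Of the 28 pairings of a member with 1 of the 7 detected probes of the let-7 family and miR-98, the member had the lower difference in 27, the exception being miR-125a (0.30) against let-7g (0.20). The count was 28 in the deposited values, 25 with the blank mean subtracted, 20 in the second intensity column and 26 to 28 under the other settings. Most of the 178 miRNAs also lay below these probes in the main values. Only 4.49% had a higher difference than let-7e, the highest of the 7, and 27.0% a higher one than let-7g, the lowest. For the cluster neighbours let-7c and let-7a the shares were 6.74% and 15.2%. Neither the direction of the 6 gaps nor the count of pairings therefore sets the members apart from other miRNAs. All 7 of these let-7 probes were above 0 in the main values, beside 44.9% of the 178 miRNAs and 3 of the 4 members, and 5 of the 7 were above 0 in the second intensity column.

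**Figure D4:**
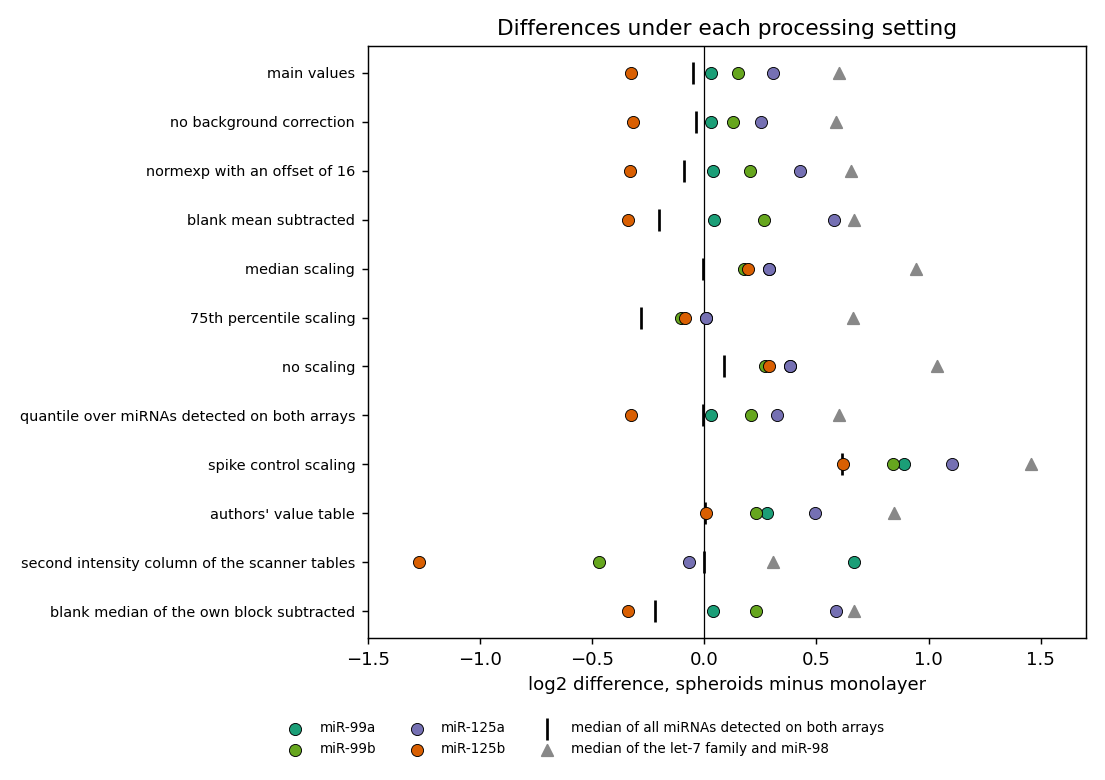
Log2 difference (spheroids minus monolayer) of each member (coloured points) in the main values and under the 11 other settings, with the median of the 178 miRNAs detected on both arrays (black ticks) and of the 7 let-7 and miR-98 probes (triangles). miR-125b is at -0.32 in the main values and 0.19 with median scaling, while the let-7 median lies to the right of all 4 members except in the second intensity column, where miR-99a is higher; in the 3 settings that only shift arrays or leave them unscaled the point of miR-99a lies under that of miR-125a.

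As a share of the miRNA signal above the blank mean, the 4 members together held 3.05% on the monolayer's array and 2.90% on that of the spheroids. The largest part was miR-125b, with 2.54% and 2.33%. let-7a, let-7c and let-7e together held 5.59% and 9.05%.

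miR-10a and miR-10b, the distant relatives of the miR-99/100 family that are encoded in HOX gene clusters, were dim. miR-10a was below the limit on both arrays, and miR-10b lay 3.35 blank SDs above the blank mean in the monolayer and 2.69 in the spheroids, with deposited values of 4.84 and 2.08. In the spheroids its raw intensity of 80.9 was below the limit that all blank spots, untrimmed, gave (81.1).

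The non-member miRNAs with the nearest log2 difference, over 2 arrays and 174 miRNAs compared, were miR-96 and miR-191 for miR-125a, miR-346 and miR-29b for miR-125b, miR-1842 and miR-188 for miR-99a, and miR-502 and miR-128 for miR-99b. Each lay within 0.02 of its member, and with 1 difference per miRNA this likeness carries no further information.

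The labelled origin of the cells was set against marker miRNAs. All 6 epithelial markers (the 5 miR-200 family probes and miR-205) were detected on both arrays, with an unscaled summed intensity above the blank mean of 1474 in the monolayer and 2730 in the spheroids. They did not move together. Main log2 differences were 0.75, 0.64 and 0.51 for miR-429, miR-141 and miR-200c, and -1.90 for miR-205, the lowest of the 178. Those of miR-200a and miR-200b were 0.01 and 0.08, but both were dim, 3.16 and 3.25 blank SDs above the blank mean in the monolayer. Their deposited log2 differences were 0.25 and 0.74, beside 0.75 for miR-200c, so their distance from the other 3 miR-200 probes varied with the processing. Both miR-125b and miR-99a are also abundant in fibroblasts and muscle, and the part of such cells in the members' values was not tested. Of the fibroblast and smooth muscle markers, miR-199 and miR-214 were detected on both arrays and miR-143 and miR-145 on neither. Unscaled sums over this whole list, undetected probes included, were 121 and 103. Main log2 differences were -0.31 for miR-199 and -0.21 for miR-214, and the deposited ones -0.51 and -0.58. Both main values lay more than 2 spot SDs below 0, as did 36.0% of the 178. miR-199 lay 40.3 blank SDs above the blank mean in the monolayer and 53.2 in the spheroids, and miR-214 lay 10.4 and 13.0 above it. This list was therefore split. Of the striated muscle markers 4 of 5 were detected on both arrays, with sums of 48.9 and 26.4, while miR-1 was undetected. Those 4 were dim, from 2.17 (miR-133a) to 7.01 (miR-133b) blank SDs above the blank mean in the monolayer and 2.27 to 7.81 in the spheroids. Not all of these calls held when the limit was set from all blank spots, untrimmed (91.3 and 81.1). miR-133a, with raw intensities of 90.2 and 80.3, was then below it on both arrays. miR-206, at 80.3, was below it in the spheroids. Main log2 differences of the 4 muscle probes were -0.26 to -0.06, 3 of them more than 2 spot SDs below 0, as were 36.0% of the 178. In the deposited values they were -0.85 (miR-133a), -0.75 (miR-133b), -1.32 (miR-133c) and -2.09 (miR-206). There 27.0% of the 178 were 2-fold or more apart, so the size for these dim probes varied with the processing. Of the blood markers miR-223 and miR-150 were detected on both arrays and miR-142 and miR-451 on neither. Sums over this whole list were 16.9 and 16.1. miR-150, at a raw 91.2 in the monolayer, was below the limit from all blank spots there. The endothelial miR-126 was not detected. In bulk RNA of this kind, fewer cells of a type and less RNA per cell cannot be told apart.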

How the data were processed

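Total RNA of 1 monolayer and 1 spheroid culture was labelled with Cy5 (Toray 3D-Gene kit), per the labels' protocols. Each deposited scanner table gives the median intensity at 635 nm of 3200 spots, per the file headers, neither background corrected nor normalized. Their second column, headed as background, followed the spot (log correlations of 0.969 and 0.953 over the 291 miRNAs) and was not subtracted. The authors' deposited value table holds linear intensities. Set against the scanner values, these equal the intensity minus the trimmed blank mean, times 0.611 for the monolayer and 0.498 for the spheroids, within 0.0257%. That places the median over the 178 shared miRNAs at 25.0.

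The main values are log2 intensities after limma's normexp (offset 50, all spots) and quantile normalization over the 291 miRNAs, which ties the brightest spots to their ranks. The blank mean (85.1 and 76.7) used 1268 of 1408 blank spots, leaving out 5% at each end. Counted as apart were differences of at least 2-fold. The spot SD came from 6 control probes with 8 spots each (42 degrees of freedom) before quantile normalization. The number of arrays limits the precision. The steps were run on simulated data whose known changes lay in bright probes below the brightest ranks. The 4 members lay outside that range, miR-125b above it and the others below, so the simulation does not cover their differences. Gene neighbours came from RefSeq's table of UU_Cfam_GSD_1.0, in which 4 of 4 members matched by name. The rule for named miRNAs took all members, the let-7 probes, miR-10a and miR-10b, the marker lists, and 2 miRNAs per member with the nearest difference. The members and lists were chosen with earlier results of these data known. limma 3.58.1, R 4.3.3, Python 3.11.15, numpy 2.4.6, pandas 2.3.3 and matplotlib 3.10.9 were used.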

Additional observations from a re-analysis of the deposited data

How the results depend on the processing

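With 1 array per culture no replicate could be left out, and every size below is a description of 2 arrays. No paired analysis was possible because each culture has 1 sample and no test was made. Beside the main values 11 other settings were run, of which the second intensity column and the blank median of a probe's own block were chosen after seeing the data. The median log2 difference over the 4 members was 0.09 in the main values and became 0.24 with median scaling, -0.040 with the 75th percentile, 0.33 with no scaling, 0.86 with the spike controls, 0.25 in the deposited values and -0.27 in the second column. For the 2 miR-99 probes (main 0.09) it became 0.23, -0.049, 0.33, 0.86 and 0.25 in the first 5 of these. For the 2 miR-125 probes (main -0.01) it was 0.24 with median scaling, 0.33 with no scaling, 0.86 with the spike controls, 0.25 in the deposited values, 0.12 with the blank mean subtracted, 0.12 with the own block's blank median and -0.67 in the second column. The spike control setting also moved the median of all 178 miRNAs, to 0.61, and the 75th percentile moved it to -0.28. The count of members 2-fold or more apart was 0 in the main values and 1 with the spike controls (miR-125a, 1.10, where 38.8% of the 178 were 2-fold or more higher) and 1 in the second column (miR-125b, -1.27); it was 0 under the other 9. Detection of the members kept its count under each alternative tried for it. The members' share of the signal stayed within the spot error of its main value under each alternative. In the deposited values this holds by construction, since they are the blank-subtracted intensities times a constant per array. miR-99a was above 0 under all 11 settings, miR-125a under 10, miR-99b under 9 and miR-125b under 4; the cause of these moves was not tested beyond what each scaling does by construction.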
